A study of Mus musculus with 10 samples.

Results

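Imprinted genes outside the Dlk1-Dio3 and Peg10 loci were followed in mouse embryonic stem cells (mESCs) with and without a scaffold protein of the mitotic deacetylase complex (MiDAC). They were taken by symbol from a list of 41 imprinted genes, and 38 of them are among the 34591 genes of the expression table. Snurf, Kcnq1ot1 and Peg13 matched no gene name and were not analysed here. The 38 genes belong to 18 loci. From what is known of each gene, 19 are transcribed from the paternal allele and 18 from the maternal allele, and the allele of Gnas depends on the transcript and the tissue. The study knocked out (KO) Dnttip1 or Elmsan1 by CRISPR/Cas9 to ask which genes depend on MiDAC, a complex of these scaffold proteins with the histone deacetylase HDAC1. RNA was sequenced from 10 libraries of 5 lines, with 2 libraries per line, namely wild-type (WT) mESCs, clones D2A7 and D1E6 with Dnttip1 KO, and clones E2E8 and E2G7 with Elmsan1 KO. All lines share the male Bruce-4 background, a C57BL/6 mESC line, and were edited in culture free of feeder cells and then moved to naive medium with inhibitors of MEK and GSK3 and leukemia inhibitory factor. Each KO line grew from a single sorted cell that carried frameshift indels, and whether the WT cells were cloned is not stated.

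Imprinted genes are transcribed mainly from a single parental allele. The choice of allele is written as DNA methylation at control regions in the oocyte or the sperm, and in the early embryo and in mESCs it is held in place by the zinc finger protein ZFP57 and its corepressor TRIM28 together with the methyltransferase DNMT1. Many of these genes set fetal and placental growth, with growth promoters such as Igf2 often read from the paternal allele and growth restrictors such as Grb10 and Phlda2 from the maternal allele, and cultured mESC lines are known to drift in imprinted expression from clone to clone. RNA levels here do not separate the parental alleles, so a change in a gene could come from either allele.

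The start regions of 6 genes are shown because these genes carry the differences described further on. By the rule given further on, Zrsr1 was called against WT in all KO clones and Ndn, Nnat and Phlda2 in 3 of them. Slc38a4 and Grb10 separated the clones of the same knockout. H19 was also called in 3 clones but had no start region in the RefSeq table. Each sequence holds the 250 bases before the most upstream RefSeq start of the gene (GRCm38.p6), in the direction of transcription, and matched the NCBIM37 build of the deposited data exactly once. Capitals mark CG dinucleotides, the sites where mammalian DNA is methylated.
Zrsr1: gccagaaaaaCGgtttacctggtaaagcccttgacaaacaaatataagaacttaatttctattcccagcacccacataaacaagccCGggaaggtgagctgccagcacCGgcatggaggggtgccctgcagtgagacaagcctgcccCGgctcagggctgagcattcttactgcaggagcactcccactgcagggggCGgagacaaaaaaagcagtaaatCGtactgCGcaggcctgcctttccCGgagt
Ndn: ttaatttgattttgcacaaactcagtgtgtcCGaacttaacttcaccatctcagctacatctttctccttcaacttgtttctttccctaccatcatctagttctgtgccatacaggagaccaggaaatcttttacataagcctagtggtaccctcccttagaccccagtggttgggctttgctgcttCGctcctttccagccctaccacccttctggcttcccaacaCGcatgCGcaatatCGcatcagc
Nnat: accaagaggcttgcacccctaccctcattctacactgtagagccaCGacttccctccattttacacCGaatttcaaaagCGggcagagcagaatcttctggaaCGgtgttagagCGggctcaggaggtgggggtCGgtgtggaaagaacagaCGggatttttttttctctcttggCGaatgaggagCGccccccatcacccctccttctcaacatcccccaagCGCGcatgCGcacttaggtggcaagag
Slc38a4: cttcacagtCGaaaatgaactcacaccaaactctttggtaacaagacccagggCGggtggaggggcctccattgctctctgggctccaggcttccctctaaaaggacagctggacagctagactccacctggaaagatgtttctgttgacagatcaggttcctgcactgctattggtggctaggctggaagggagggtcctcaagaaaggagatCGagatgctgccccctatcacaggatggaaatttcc
Grb10: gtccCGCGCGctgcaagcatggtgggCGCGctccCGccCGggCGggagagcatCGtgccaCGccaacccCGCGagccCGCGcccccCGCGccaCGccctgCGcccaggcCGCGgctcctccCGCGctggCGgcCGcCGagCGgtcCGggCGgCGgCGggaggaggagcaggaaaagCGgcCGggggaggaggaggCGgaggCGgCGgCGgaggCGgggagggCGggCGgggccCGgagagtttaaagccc
Phlda2: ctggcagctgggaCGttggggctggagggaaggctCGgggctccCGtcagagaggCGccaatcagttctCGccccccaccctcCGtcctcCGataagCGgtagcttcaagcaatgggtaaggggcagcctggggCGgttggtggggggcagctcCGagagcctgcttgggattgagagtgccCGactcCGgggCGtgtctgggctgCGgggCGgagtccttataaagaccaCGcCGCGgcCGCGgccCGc

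In NCBIM37 these stretches lie at chr11:22871755-22872004 on the + strand (Zrsr1), chr7:69492913-69493162 on the + strand (Ndn), chr2:157385564-157385813 on the + strand (Nnat), chr15:96886388-96886637 on the - strand (Slc38a4), chr11:11937424-11937673 on the - strand (Grb10) and chr7:150688430-150688679 on the - strand (Phlda2). For Ndn, Nnat and Slc38a4 they end at the start of the gene in GENCODE vM1, the annotation on that build. The Phlda2 stretch overlaps the annotated start by 17 bases, the Grb10 stretch lies inside the annotated gene, just before a RefSeq start 1263 bases from the annotated one, and the Zrsr1 stretch ends 1210 bases before the annotated start. The number of CG dinucleotides ran from 3 in Slc38a4 over 5 in Ndn, 8 in Zrsr1, 12 in Nnat and 21 in Phlda2 to 40 in Grb10. For medians and for the motif counts below, a gene with several RefSeq starts was counted by its start with the most matches. On this measure the median was 15 over the 30 members with a start region in the RefSeq table, and 6 over all 27025 genes. Slc38a4 has 3 RefSeq starts and Grb10 has 2, and their counts above are for the most upstream start only, unlike the medians. The stretches shown thus include CG-poor and CG-dense ones. The ZFP57 motif TGCCGC was searched on both strands and occurred at 6 of the 30 members (20.0%), which are Zim1, Mest, Copg2, Plagl1, Mcts2 and Zdbf2, and at 9.84% of all genes. TGCAGTG, an arm of the inverted repeat described for DNTTIP1 binding in human cells, occurred on either strand at 2 of the 30 members (6.67%), Zrsr1 and Zdbf2, and at 4.64% of all genes. Zrsr1 holds it in both orientations, starting 124 and 65 bases before the RefSeq start with 52 bases between the copies. The described repeat has a fixed and shorter gap between its arms, so the Zrsr1 copies differ from it. In mESCs the study found no clear consensus motif for DNTTIP1. Mest and Zdbf2 have several RefSeq starts, and at the most upstream start Mest lacked TGCCGC and Zdbf2 lacked TGCAGTG. Binding data were not used here.

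The libraries held between 30182379 and 84291842 fragments on genes, with WT at the low end, and the 10 most abundant genes took between 19.7% and 33.2% of the summed FPKM, the most in WT replicate 1 (33.2%) and in the E2E8 libraries (32.0% and 31.2%). FPKM is the fragment count scaled for exon length and library size, and all values below were further scaled between libraries by factors from 0.965 to 1.01. The 8 markers of mESCs lay between 59.0 and 377 FPKM, none was called in either knockout (0 of 8 by limma and by voom, 5 of 8 at an unadjusted p under 0.05 in each), and the fibroblast markers were at most 0.103 FPKM apart from Thy1 (at most 0.443). Dnttip1 RNA was 8.45 and 8.35 FPKM in WT, 4.57 and 4.56 in D2A7 and 2.58 and 2.60 in D1E6. Elmsan1 RNA was 0.19 lower on the log2 scale in Elmsan1 KO than in WT (adjusted p = 0.188, limma), and a frameshift need not remove the transcript, so RNA does not check these labels. In bulk RNA, fewer cells with a transcript and less of it per cell cannot be told apart.

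Nearly all members were transcribed in mESCs. Averaged over the 10 libraries, 12 members were at 10 FPKM or more, 15 between 1 and 10, 6 between 0.1 and 1, and 5 below 0.1. The most abundant were Cd81, a membrane tetraspanin, at 107 to 131 FPKM and Nap1l4, a histone chaperone, at 62.8 to 70.5 FPKM. Impact, a regulator of the amino acid stress response, followed at 45.8 to 64.2 FPKM. At the low end, Airn, the antisense RNA of Igf2r, reached at most 0.0367 FPKM and Klf14 at most 0.0199 FPKM. Rasgrf1, a neuronal exchange factor, had 4 fragments in a single library, D2A7 replicate 2, and 0 in the other 9. Airn, Klf14, Rasgrf1, Zim1 and Magel2 were too low to test. The other 33 members could be compared among the 5 lines, 32 of them in each knockout (Kcnq1 did not pass the filter of 0.1 FPKM in 2 libraries for Dnttip1 KO, nor Igf2 for Elmsan1 KO).

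**Figure D1:**
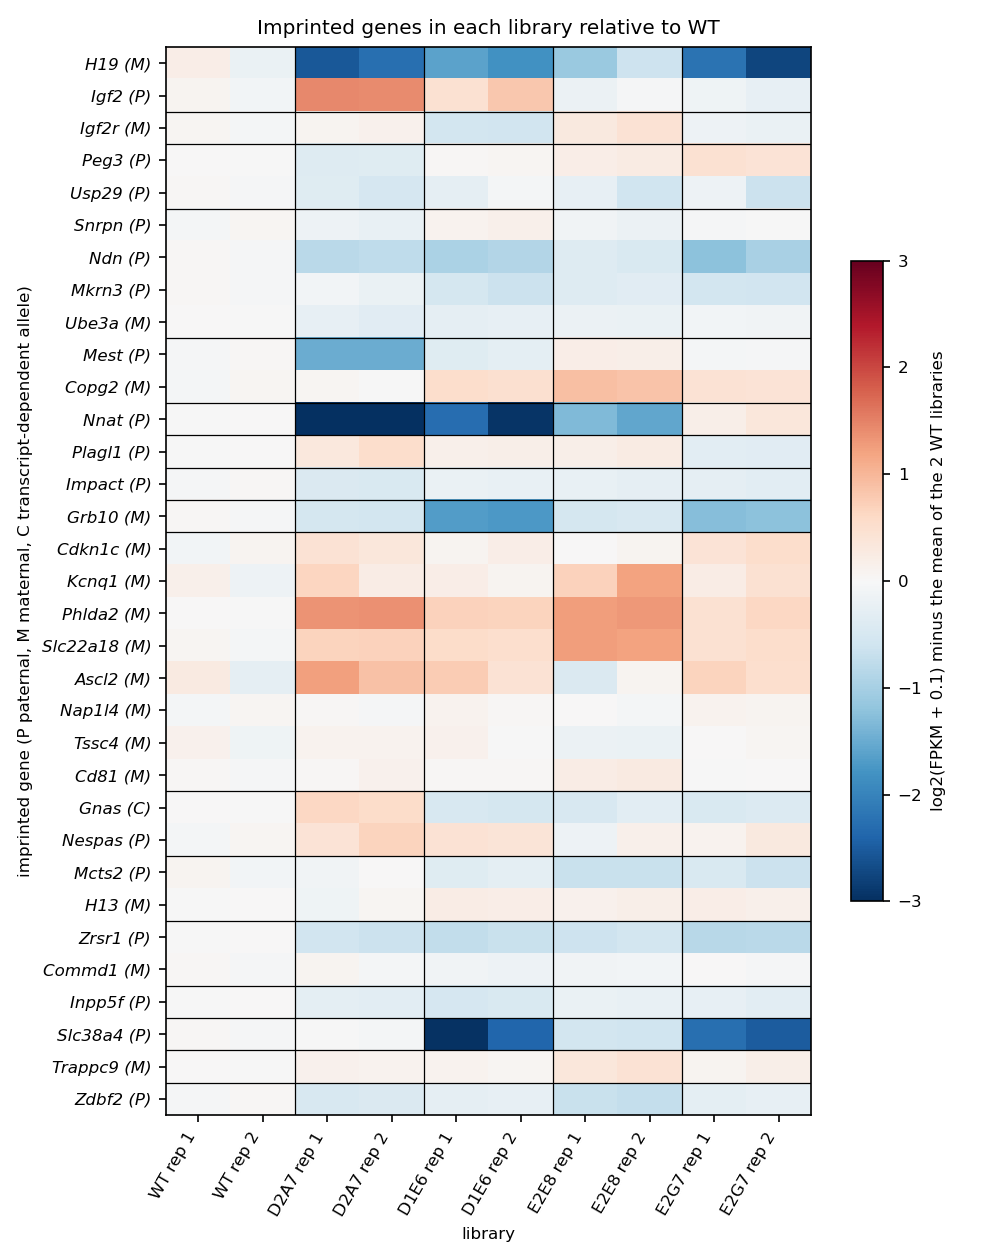
Level of the 33 tested imprinted genes in each of the 10 libraries, as log2(FPKM + 0.1) minus the mean of the 2 WT libraries, with lines between loci and the expressed allele in brackets; colours stop at 3 in either direction, and the 2 D2A7 libraries of Nnat lie past that end. Zrsr1 and Ndn are lower in all 8 KO libraries, whereas Nnat, Slc38a4 and Mest differ between clones of the same knockout.

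Each knockout was compared with WT in limma over all genes, with 4 KO libraries against 2 WT libraries, and a gene was called when its fold change was at least 1.5 and its unadjusted p under 0.01, the rule of the study. The comparisons share the WT libraries. Dnttip1 KO mESCs had 6 of 32 members called, in a table where 6.51% of all genes were called, with Phlda2 and Slc22a18 higher (3.26% of all genes) and H19, Ndn, Nnat and Zrsr1 lower (3.25% of all genes). Elmsan1 KO mESCs had 3 of 32 members called, against 6.43% of all genes, with Copg2 higher (2.74% of all genes) and Mcts2 and Zrsr1 lower (3.68% of all genes). The median size of the log2 fold change, without its sign, was 0.31 over the members and 0.21 over all genes in Dnttip1 KO, and 0.30 and 0.21 in Elmsan1 KO. An adjusted p under 0.05 (Benjamini-Hochberg over all genes tested), at any fold change, was reached by 7 of 32 members in Dnttip1 KO, against 9.47% of all genes, and by 4 of 32 in Elmsan1 KO, against 10.5% of all genes, and 5 and 2 of these were also called. With each library left out in turn, the counts were between 4 and 7 in Dnttip1 KO and between 1 and 5 in Elmsan1 KO, the 1 without WT replicate 1 and the 5 without E2G7 replicate 1. The study calls the libraries of a line biological replicates, and whether they came from separate cultures is not stated. The 4 KO libraries of a knockout come from only 2 clones whose libraries resemble each other (correlation within clones 0.704 and 0.768), and p-values measure the spread between these libraries.

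Paternally and maternally expressed members leaned in different directions, by small amounts. Of the paternally expressed members, 13 of 16 had a negative log2 fold change in Dnttip1 KO (median -0.34) and 12 of 15 in Elmsan1 KO (median -0.41). Of the maternally expressed members, 10 of 15 had a positive value in Dnttip1 KO (median 0.08) and 11 of 16 in Elmsan1 KO (median 0.14). Ube3a, which is read from both alleles in most cells, is counted among them, and without it the values were 10 of 14 (median 0.09) and 11 of 15 (median 0.17). The medians of all genes tested were 0.02 and 0.00. Most of these values did not pass the test, and neighbours at a locus are not independent. The alleles are taken from what is known of each gene. Which alleles are read in these cells was not measured for any member, so members other than Ube3a may also be read from both. All 4 Dnttip1 KO libraries lay below both WT libraries for 12 of 32 members (20.8% of all genes) and above them for 7 (21.1% of all genes). In Elmsan1 KO the same was true of 13 of 32 members below (21.8% of all genes) and 7 above (21.3% of all genes).

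Zrsr1 is a paternally expressed retrocopy of a splicing factor gene that lies on chromosome 11 (22873215 to 22876498, + strand) within an intron of the broadly expressed copper metabolism gene Commd1. It was the member called lower in both knockouts and in all 4 clones, where 2.62% of all genes were called in all 4. Its level was 5.83 and 5.90 FPKM in WT, 3.87 and 3.73 in D2A7, 3.5 and 3.67 in D1E6, 3.77 and 3.99 in E2E8, and 3.23 and 3.33 in E2G7. All 8 KO libraries lay well below both WT libraries and close to each other. The mean fell from 5.86 ± 0.0547 FPKM (SD, n = 2) in WT to 3.69 ± 0.155 (SD, n = 4) in Dnttip1 KO and 3.58 ± 0.358 (SD, n = 4) in Elmsan1 KO. The log2 fold change was -0.65 (SE 0.074, adjusted p = 0.0081, limma) in Dnttip1 KO and -0.70 (SE 0.109, adjusted p = 0.0148) in Elmsan1 KO. The clone values were -0.61 in D2A7, -0.70 in D1E6, -0.59 in E2E8 and -0.82 in E2G7, with adjusted p from 2.11e-05 to 5.71e-05 in limma. They sit near the 1.5-fold threshold, and E2E8 fell under it without E2E8 replicate 1 (-0.54) or WT replicate 2 (-0.58), with the FPKM as deposited (-0.56) or with chromosome medians removed (-0.54). With a pseudocount of 1 the Dnttip1 KO value was -0.55, under the threshold, as were those of D2A7, D1E6 and E2E8 (-0.52, -0.58 and -0.49). Over the alternatives run, the highest adjusted p was 0.100 in Dnttip1 KO and 0.141 in Elmsan1 KO (limma). Commd1, the maternally expressed host, was between 5.02 and 5.96 FPKM and was called in neither knockout. The annotated exons of both genes share 203 bases on opposite strands, 6.18% of the Zrsr1 exons. Zrsr2, the parent copy of Zrsr1, was looked up after the values were seen and was between 6.50 and 7.27 FPKM, with log2 fold changes of -0.08 and -0.10 that were not called. How reads that match both copies were counted is not given in the sources used here.

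Mcts2 is a further paternally expressed retrocopy, of the translation factor gene Mcts1, and lies inside the signal peptide peptidase gene H13 on chromosome 2 (152512884 to 152513676, + strand). Its level was 23.5 and 21.0 FPKM in WT, 20.5 and 22.5 in D2A7, 17.4 and 18.0 in D1E6, 14 and 14 in E2E8, and 16.1 and 14.3 in E2G7. The Elmsan1 KO libraries were the lowest, at 14.6 ± 1.01 FPKM (SD, n = 4) against 22.3 ± 1.8 (SD, n = 2) in WT, while the D2A7 libraries overlapped WT. In Elmsan1 KO the log2 fold change was -0.61 (SE 0.083, adjusted p = 0.0106, limma), just past 1.5-fold, and it was not called without WT replicate 1 (-0.52), with a pseudocount of 1 (-0.58), with the FPKM as deposited (-0.58), with chromosome medians removed (-0.56) or with correlation within clones (unadjusted p = 0.0109, limma). In the clones Mcts2 was called in E2E8 (-0.66, adjusted p = 0.000232, limma), again not without WT replicate 1 (-0.58). H13, read from the maternal allele, was between 3.41 and 4.37 FPKM and not called. Mcts1 was between 12.7 and 15.3 FPKM, with log2 fold changes of -0.19 in Dnttip1 KO and -0.11 in Elmsan1 KO that were not called either.

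Nnat encodes neuronatin, a small membrane protein of the developing brain, and is read from the paternal allele on chromosome 2 (157385814 to 157388258, + strand) within an intron of Blcap. It had the largest fold change from WT among the tested members. Its level was 1.57 and 1.61 FPKM in WT, 0.0264 and 0.0821 in D2A7, 0.248 and 0.121 in D1E6, 0.574 and 0.476 in E2E8, and 1.82 and 2.04 in E2G7. The D2A7 libraries held only 3 and 8 fragments, whereas the shallower WT libraries held 86 and 113. In both Dnttip1 KO clones and in E2E8 Nnat was below WT without overlap, while both E2G7 libraries were above WT. In Dnttip1 KO the log2 fold change was -3.04 (SE 0.397, adjusted p = 0.0112, limma), an 8.24-fold decrease on the scale of FPKM + 0.1, which understates low values. Among the clones it was -3.48 in D2A7 (an 11.1-fold decrease, adjusted p = 2.47e-05, limma), -2.61 in D1E6 and -1.44 in E2E8, and E2G7 had 0.26 (adjusted p = 0.441, limma). The Elmsan1 KO clones therefore lay on opposite sides of WT, and the pooled value of -0.59 (SE 0.599, adjusted p = 0.562, limma) describes neither. Blcap, the host gene, stayed between 6.76 and 7.93 FPKM and its log2 differences from WT between -0.11 and 0.04 in the clones.

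The Snrpn-Ube3a locus on chromosome 7, the region of the Prader-Willi and Angelman syndromes, holds 4 paternally expressed members and Ube3a, a ubiquitin ligase read from both alleles in most cells and from the maternal allele in neurons. Ndn (necdin, a growth suppressor of neurons; 69493163 to 69494814, + strand) was 3.09 and 2.93 FPKM in WT, 1.68 and 1.74 in D2A7, 1.5 and 1.59 in D1E6, 2.27 and 2.15 in E2E8, and 1.23 and 1.47 in E2G7. All 8 KO libraries lay below WT, with E2E8 nearest to it. In Dnttip1 KO the mean was 1.63 ± 0.105 FPKM (SD, n = 4) against 3.01 ± 0.114 (SD, n = 2) in WT, and the log2 fold change was -0.85 (SE 0.103, adjusted p = 0.0093, limma). In Elmsan1 KO it was -0.76 (SE 0.258, adjusted p = 0.115, limma), with -0.43 in E2E8 and -1.10 in E2G7. The difference of 0.68 between these clones (adjusted p = 0.000615, limma) fell to 0.56 and was not called without E2G7 replicate 1. Mkrn3, a makorin ring finger protein gene, was 2.60 and 2.44 FPKM in WT and between 1.58 and 2.39 in the KO libraries. It too lay below both WT libraries in all 8 KO libraries, with log2 fold changes of -0.36 and -0.47 that were under the fold threshold. Magel2 was not tested, with 3 to 12 fragments in each library, and its FPKM was 0.0858 at most and lower in every KO library than in either WT library. Snrpn, a spliceosome component at the other end of the locus, ranged from 21.8 to 28.7 FPKM with no such separation, and its log2 fold changes were -0.03 and -0.08. Ube3a, between 16.8 and 21.3 FPKM, differed from WT by -0.27 in Dnttip1 KO (adjusted p = 0.0282, limma), under the fold threshold.

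Nnat, Ndn and Magel2 are known from neurons, so 4 neural markers that could be tested, Sox1, Nes, Tubb3 and Map2, were read beside them. Nes was called higher and Map2 lower in Dnttip1 KO, and Nes higher in Elmsan1 KO (1.30, -1.05 and 0.80 on the log2 scale). Nes was between 4.14 and 12.9 FPKM, Tubb3 between 43.9 and 87.3 and Map2 between 0.611 and 1.56, while Pax6, a neural transcription factor gene too low to test, was at most 0.0250 FPKM. Summed over the 4 tested markers, the level was 59.4 to 66.1 FPKM in WT, 84.3 to 95.3 in Dnttip1 KO and 51.5 to 97.5 in Elmsan1 KO. The 6 primitive endoderm markers were at most 0.950 FPKM and summed to 1.05 to 1.14 FPKM in WT, 0.684 to 1.55 in Dnttip1 KO and 0.725 to 0.868 in Elmsan1 KO. Of these 4 could be tested and none was called (0 in either knockout by limma, 0 in Dnttip1 KO and 1 in Elmsan1 KO at an unadjusted p under 0.05 and likewise by voom). In single clones against WT, primitive endoderm markers were called 1 higher and 1 lower in D2A7, 1 lower in D1E6, 2 lower in E2E8 and 0 in E2G7. Neural markers were called 2 higher and 1 lower in each of D2A7 and D1E6, 0 in E2E8 and 2 higher in E2G7. The part of the neural and primitive endoderm markers in the values of the members was not tested.

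The Igf2-H19 locus on chromosome 7 pairs a paternally expressed growth factor with a maternally expressed non-coding RNA that share enhancers, and both were low in these cells. H19 (149761434 to 149764048, - strand) was 0.703 and 0.518 FPKM in WT, 0.0203 and 0.0475 in D2A7, 0.130 and 0.100 in D1E6, 0.227 and 0.355 in E2E8, and 0.0524 and 0.00487 in E2G7. All 8 KO libraries were below WT, and those of E2E8 were the highest among them. These values rest on 50 and 47 fragments in WT, on 3 to 15 in each Dnttip1 KO library and, in E2G7 replicate 2, on 1. The log2 fold change was -2.06 (SE 0.319, adjusted p = 0.0175, limma) in Dnttip1 KO and -1.67 (SE 0.608, adjusted p = 0.137, limma) in Elmsan1 KO. Its size depends on the pseudocount, running from -3.26 with 0.01 to -0.58 with 1 in Dnttip1 KO, where the latter was not called. In the clones it was -2.40 in D2A7, -1.71 in D1E6, -0.87 in E2E8 and -2.48 in E2G7, and E2E8 was not called.

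Igf2 went the other way in the Dnttip1 KO clones. Its level was 0.109 and 0.0856 FPKM in WT, 0.439 and 0.430 in D2A7, 0.169 and 0.248 in D1E6, 0.0741 and 0.0914 in E2E8, and 0.0814 and 0.0653 in E2G7. The 4 Dnttip1 KO libraries, with 45 to 150 fragments each, lay above both WT libraries, and the Elmsan1 KO libraries overlapped WT. Against WT the log2 difference was 1.44 in D2A7 (SE 0.179, adjusted p = 0.000411, limma) and 0.63 in D1E6 (adjusted p = 0.0249, limma). The D1E6 call was lost without WT replicate 1 (0.72), WT replicate 2 (0.55) or D1E6 replicate 2 (0.45). The Dnttip1 KO clones as a group did not pass (1.04, SE 0.339, adjusted p = 0.114, limma). Igf2 met the filter of 0.1 FPKM in 2 libraries only through the Dnttip1 KO libraries, since outside them just WT replicate 1 reached that level. Its differences from WT are therefore descriptive. Igf2r, the maternally expressed receptor on chromosome 17 that removes IGF2, was 19.2 and 18.0 FPKM in WT, 19.7 and 20.4 in D2A7, 12.7 and 12.6 in D1E6, 23.0 and 25.2 in E2E8, and 16.7 and 16.2 in E2G7. It lay on both sides of WT, with log2 differences of 0.11, -0.55, 0.37 and -0.18 in that order of clones, none past 1.5-fold.

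**Figure D2:**
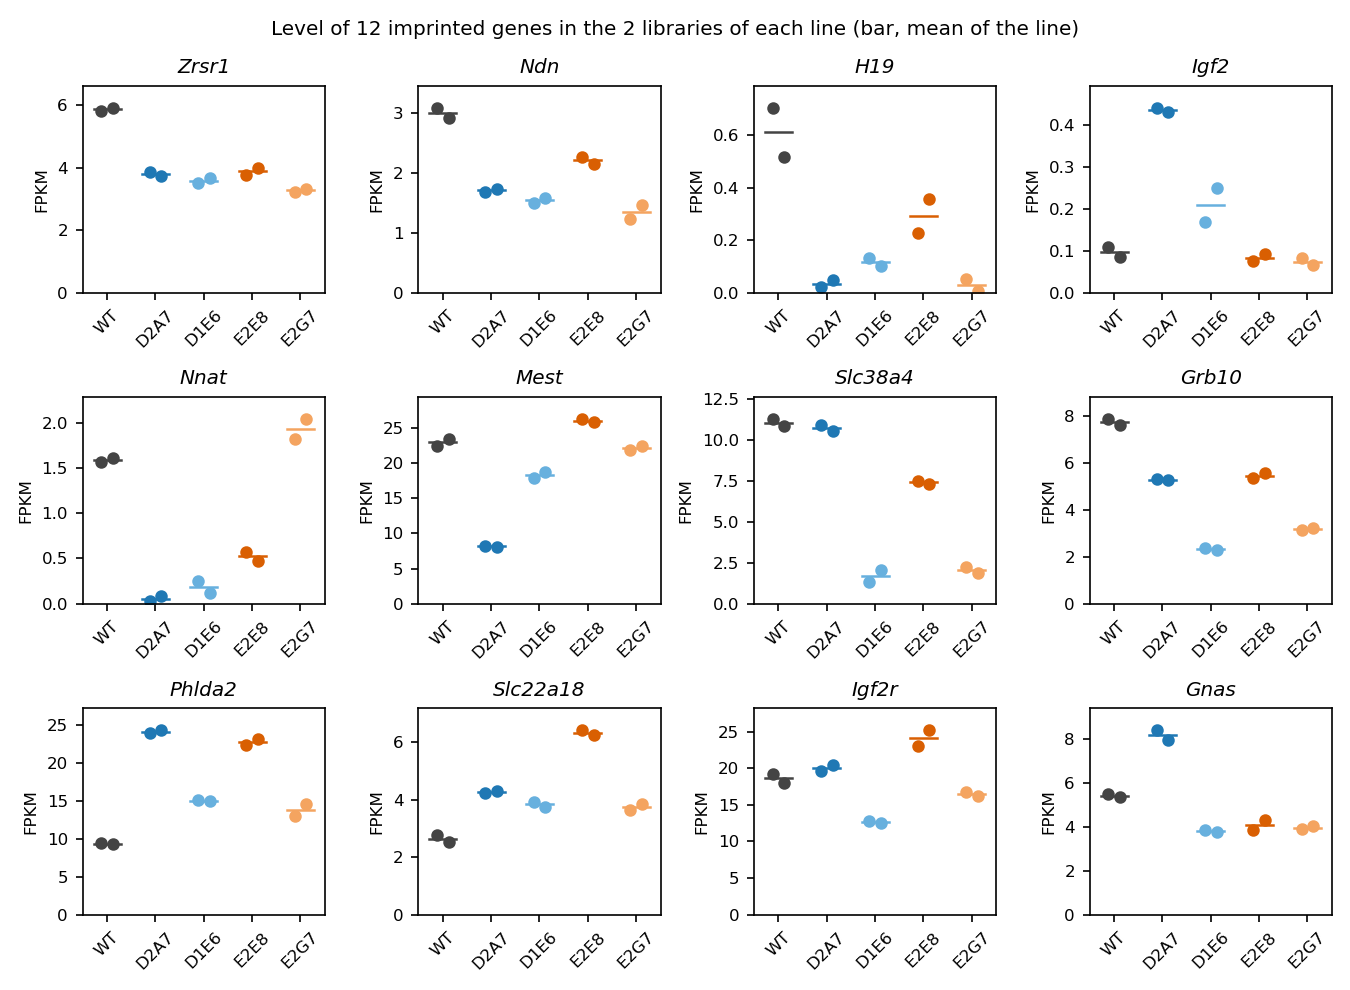
FPKM of 12 imprinted genes in the 2 libraries of each line (points), with the mean of the line as a bar; each panel has its own axis from 0. Zrsr1 and Ndn are below WT in all 4 clones and Phlda2 and Slc22a18 above WT in all 4, while Nnat, Mest, Slc38a4, Grb10, Igf2r and Gnas differ between clones of the same knockout.

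The Kcnq1-Cdkn1c cluster on distal chromosome 7 holds 8 maternally expressed members, silenced on the paternal allele under the non-coding RNA Kcnq1ot1. The placental growth restrictor Phlda2 and its neighbour Slc22a18, a transporter gene, rose in Dnttip1 KO. Phlda2 (150687450 to 150688446, - strand) was 9.42 and 9.32 FPKM in WT, 23.9 and 24.3 in D2A7, 15.1 and 15.0 in D1E6, 22.4 and 23.1 in E2E8, and 12.9 and 14.5 in E2G7. Slc22a18 was 2.75 and 2.51 FPKM in WT, 4.24 and 4.31 in D2A7, 3.91 and 3.76 in D1E6, 6.42 and 6.25 in E2E8, and 3.63 and 3.84 in E2G7. For both genes all 8 KO libraries lay above both WT libraries, and D2A7 and E2E8 lay above the other clone of their knockout. Phlda2 had a log2 fold change of 1.02 (SE 0.241, adjusted p = 0.0528, limma) in Dnttip1 KO and 0.91 (SE 0.257, adjusted p = 0.0761, limma) in Elmsan1 KO, where its p was above 0.01. Slc22a18 had 0.60 (SE 0.095, adjusted p = 0.0183, limma) and 0.86 (SE 0.269, adjusted p = 0.0948, limma). The Dnttip1 KO call of Phlda2 was lost without WT replicate 1 (1.02), WT replicate 2 (1.01) or D2A7 replicate 1 (0.91), by voom on recovered fragments (1.02, unadjusted p = 0.0198) and with a block on the replicate number (unadjusted p = 0.0116, limma). That of Slc22a18 was lost without WT replicate 2 (0.54) or either D2A7 library (0.58 each) and with a pseudocount of 1 (0.48). Clone by clone, Phlda2 differed from WT by 1.35 in D2A7, 0.68 in D1E6, 1.27 in E2E8 and 0.54 in E2G7, and the first 3 were called.

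Of the other 6 members of this cluster, Ascl2 and Kcnq1 were called higher in a single clone each and the other 4 in no pairwise comparison. Ascl2, a trophoblast transcription factor gene, was 0.806 and 0.519 FPKM in WT, 1.66 and 1.28 in D2A7, 1.16 and 0.903 in D1E6, 0.456 and 0.696 in E2E8, and 1.09 and 0.968 in E2G7. The libraries of a line differed enough that the call in D2A7 (1.06, SE 0.246, adjusted p = 0.00876, limma) was lost without WT replicate 2 (0.78) or D2A7 replicate 1 (0.88). Kcnq1, a potassium channel gene, had 5 to 56 fragments per library and was called higher in E2E8 (0.96, adjusted p = 0.0128, limma), but not without E2E8 replicate 2 (0.70) or WT replicate 2 (0.81). Cdkn1c, the cell cycle inhibitor of the cluster, was between 1.71 and 2.64 FPKM with log2 fold changes of 0.27 in Dnttip1 KO and 0.26 in Elmsan1 KO that were not called. The outer members Nap1l4, Tssc4 (13.8 to 17.3 FPKM) and Cd81 had log2 fold changes between -0.08 and 0.12 in the knockouts. The trophoblast markers Cdx2, Elf5, Gata3 and Hand1 were at most 0.166 FPKM in every library, while Eomes (1.84 to 3.23 FPKM) and Tfap2c (23.1 to 37.8 FPKM), which are not specific to trophoblast, were detected.

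Grb10 and Slc38a4 fell in D1E6 and E2G7 and were not called in D2A7 and E2E8. Grb10 (11830511 to 11938686 on chromosome 11, - strand) encodes an adaptor that dampens insulin and IGF signalling and is read from the maternal allele outside neurons. It was 7.87 and 7.61 FPKM in WT, 5.30 and 5.27 in D2A7, 2.36 and 2.29 in D1E6, 5.36 and 5.56 in E2E8, and 3.13 and 3.24 in E2G7. All 8 KO libraries were below WT, and D1E6 and E2G7 were lowest. The log2 differences were -0.54 in D2A7 and -0.50 in E2E8, under the fold threshold, and -1.69 (SE 0.044, adjusted p = 7.14e-07, limma) in D1E6 and -1.25 (SE 0.044, adjusted p = 2.49e-06, limma) in E2G7. With clones pooled, neither knockout passed (-1.12, adjusted p = 0.145, and -0.88, adjusted p = 0.092, limma).

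Slc38a4, a paternally expressed amino acid transporter of placenta and liver (96825254 to 96886387 on chromosome 15, - strand), split the clones further. It was 11.3 and 10.9 FPKM in WT, 10.9 and 10.6 in D2A7, 1.34 and 2.05 in D1E6, 7.5 and 7.35 in E2E8, and 2.24 and 1.89 in E2G7. D2A7 was at the WT level, E2E8 was between, and D1E6 and E2G7 were far below. The decrease was 6.35-fold in D1E6 (log2 -2.67, SE 0.164, adjusted p = 1.87e-05, limma) and 5.19-fold in E2G7 (-2.38, adjusted p = 3.6e-05, limma), and D2A7 differed by -0.04. As knockouts, the values were -1.35 (SE 0.929, adjusted p = 0.397, limma) and -1.47 (SE 0.625, adjusted p = 0.187, limma). For Grb10 and Slc38a4 alike, the 2 lines with the lowest level thus belong to different knockouts.

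**Figure D3:**
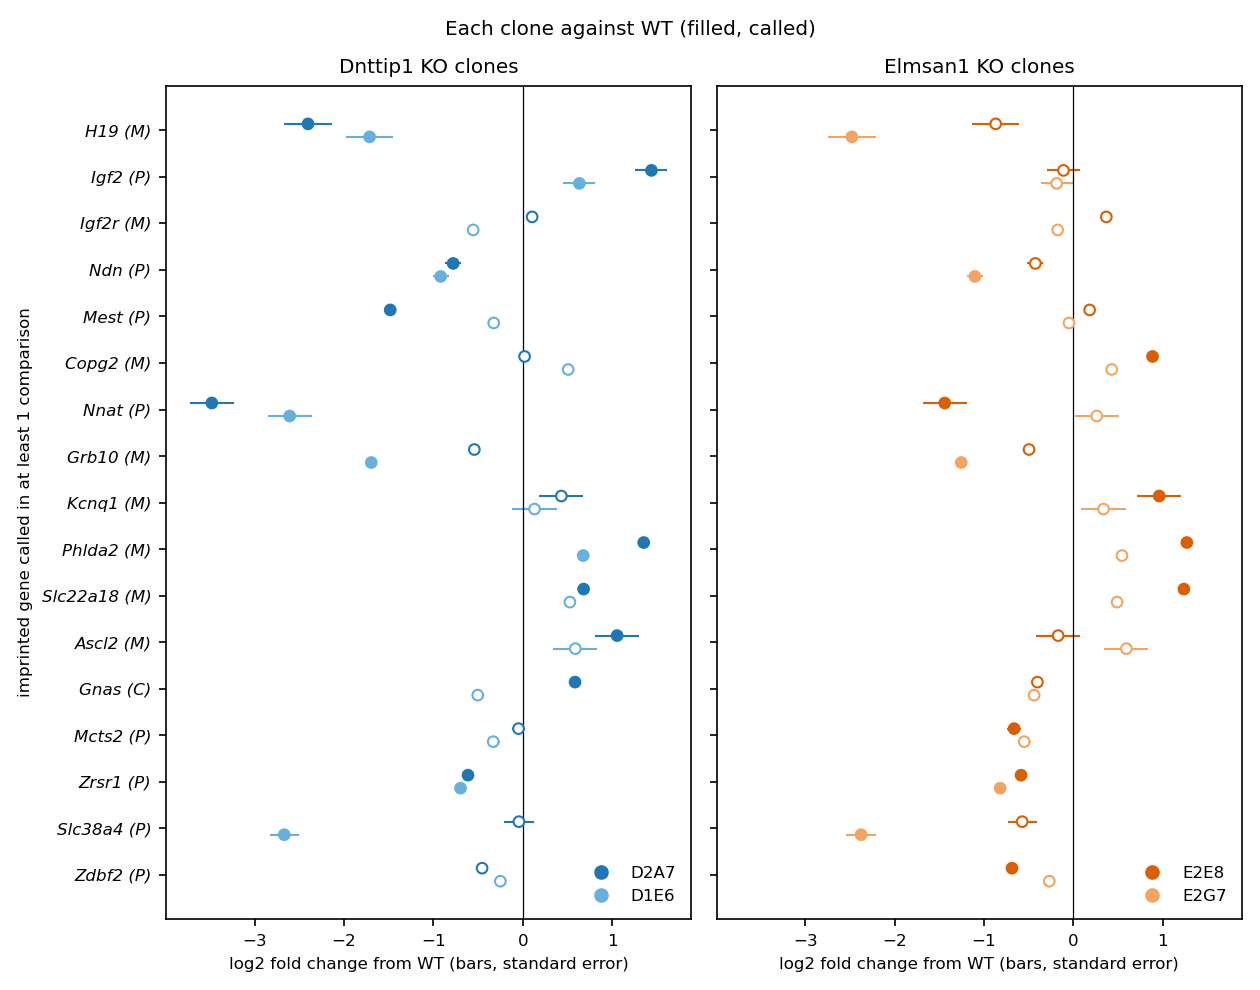
Log2 fold change from WT of the 17 imprinted genes called in at least 1 pairwise comparison, for each Dnttip1 KO clone (left) and each Elmsan1 KO clone (right), with standard errors as bars and filled points for called values. Zrsr1 is called in all 4 clones, Slc38a4 reaches -2.67 in D1E6 and -2.38 in E2G7 but not in D2A7 or E2E8, and Nnat is at -3.48 in D2A7 and 0.26 in E2G7.

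Clones of the same knockout were compared directly in a fit of all 10 libraries with the 5 lines as groups. D2A7 and D1E6 differed in 8 of 33 members, against 13.1% of all genes, with Igf2, Igf2r, Grb10, Phlda2, Gnas and Slc38a4 higher and Mest and Nnat lower in D2A7. E2E8 and E2G7 differed in 7 of 33 members, against 12.5% of all genes, with H19, Ndn, Grb10, Phlda2, Slc22a18 and Slc38a4 higher and Nnat lower in E2E8. The largest difference was that of Slc38a4, with log2 values of 2.63 (SE 0.164, adjusted p = 1.52e-05, limma) between the Dnttip1 KO clones and 1.80 (adjusted p = 0.000116, limma) between the Elmsan1 KO clones. Nnat differed by -0.87 (adjusted p = 0.0229, limma) and -1.70 (adjusted p = 0.000995, limma), but the difference between the Dnttip1 KO clones was lost without D2A7 replicate 1 (-0.61) or D1E6 replicate 1 (-0.54). That of Igf2 (0.81, adjusted p = 0.0082, limma) was lost without D2A7 replicate 1 (0.79), D2A7 replicate 2 (0.82) or D1E6 replicate 1 (0.62). Against WT, D2A7 had 10 members called (16.3% of all genes called), D1E6 had 8 (11% of all genes), E2E8 had 8 (16.1% of all genes) and E2G7 had 5 (9.95% of all genes). In all, 17 of 33 members were called in at least 1 of the 9 pairwise comparisons, against 35% of all genes, and 19 of 33 had the same sign against WT in all 4 clones, against 45% of all genes. Over the 5 lines together, 18 of 33 members differed (F test in limma, adjusted p under 0.05 and a range of at least 1.5-fold), against 37% of all genes. The range of line means had a median of 0.75 over the members and 0.56 over all genes on the log2 scale, and among genes that averaged 1 FPKM or more it was 0.66 over 27 members and 0.43 over 12215 genes.

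The Mest locus lies on chromosome 6, whose genes as a whole stood apart in some clones. Mest, a paternally expressed hydrolase gene (30673547 to 30698457, + strand), was 22.5 and 23.5 FPKM in WT, 8.18 and 8.13 in D2A7, 17.9 and 18.7 in D1E6, 26.3 and 25.8 in E2E8, and 21.9 and 22.5 in E2G7. The D2A7 libraries were the lowest, and those of D1E6 were also below both WT libraries. In D2A7 the log2 difference was -1.48 (SE 0.034, adjusted p = 4.4e-07, limma), a 2.79-fold decrease, and the difference from D1E6 was -1.16 (adjusted p = 1.18e-06, limma). Its neighbour Copg2, a coat protein gene of the Golgi (30697554 to 30846794, - strand), was 24.0 and 26.4 FPKM in WT, 26.1 and 25.0 in D2A7, 36.5 and 35.2 in D1E6, 47.4 and 45.8 in E2E8, and 34.2 and 33.6 in E2G7. Its libraries lay above WT in all clones but D2A7. In Elmsan1 KO its log2 fold change was 0.66 (SE 0.166, adjusted p = 0.0565, limma), and the call was lost without WT replicate 1 (0.59), WT replicate 2 (0.73), E2E8 replicate 1 (0.57) or E2E8 replicate 2 (0.59), and also with no variance trend, a replicate block or correlation within clones (unadjusted p from 0.0108 to 0.0135, limma). The median log2 difference from WT of the 542 chromosome 6 genes was -0.08 in D2A7, 0.42 in D1E6, 0.39 in E2E8 and 0.29 in E2G7. Relative to it, the Copg2 value was 0.32 in Elmsan1 KO and 0.51 in E2E8, neither of them called, and Mest differed by -0.65 between D2A7 and D1E6, which was still called. Against WT and relative to that median, Mest was at -1.40 in D2A7 and -0.75 in D1E6, both called (adjusted p = 6.43e-07 and 7.28e-06, limma), and at -0.20 in E2E8 and -0.34 in E2G7. The exons of Mest and Copg2 share 904 bases on opposite strands (23.0% of Mest and 20.2% of Copg2). The library kit keeps strand, and whether counting used it is not given in the sources used here.

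**Figure D4:**
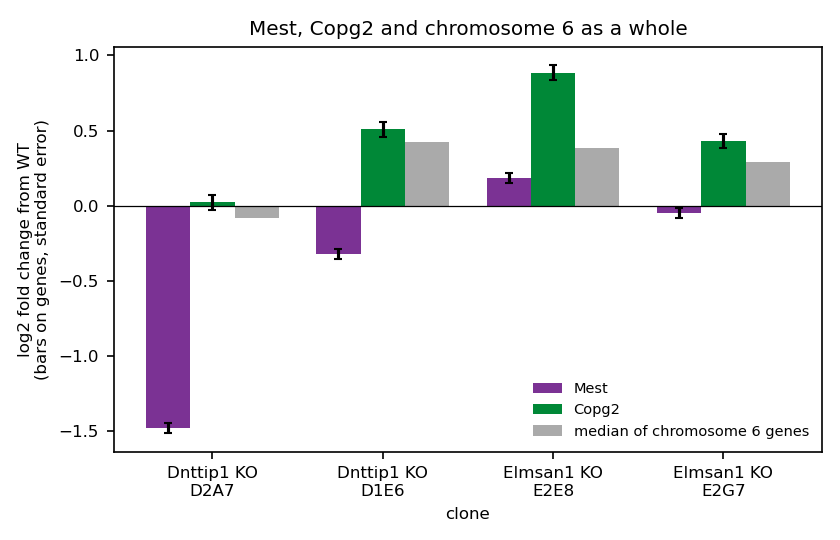
Log2 fold change from WT of Mest and Copg2 (bars on the columns, standard error) and the median over 542 chromosome 6 genes in each KO clone. Mest is at -1.48 in D2A7, where the chromosome median is -0.08, and Copg2 is highest in E2E8 (0.89), where the chromosome median is 0.39.

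At the Gnas locus on chromosome 2, Gnas encodes the stimulatory G protein alpha subunit and related proteins from several promoters, and Nespas is an antisense RNA. Gnas was 5.49 and 5.35 FPKM in WT, 8.41 and 7.96 in D2A7, 3.84 and 3.75 in D1E6, 3.86 and 4.30 in E2E8, and 3.90 and 4.04 in E2G7. D2A7 was above WT and the other clones below it. The D2A7 value of 0.59 (SE 0.059, adjusted p = 0.000133, limma) sat at the 1.5-fold threshold and fell under it without WT replicate 2 (0.57) or D2A7 replicate 1 (0.55), while the difference between D2A7 and D1E6 was 1.09 (adjusted p = 7.95e-06, limma). In Elmsan1 KO Gnas had -0.42 (SE 0.080, adjusted p = 0.0253, limma), under the fold threshold. Nespas was 4.54 and 4.90 FPKM in WT and between 6.24 and 7.51 in the Dnttip1 KO libraries, a log2 fold change of 0.47 (SE 0.099, adjusted p = 0.0387, limma) that was also under it. The exons of the genes share 988 bases on opposite strands, 31.4% of Nespas.

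At the remaining loci Zdbf2 was called against WT in a single clone, and Inpp5f, Impact, Peg3, Plagl1, Usp29 and Trappc9 were called in no pairwise comparison. Zdbf2, a paternally expressed gene on chromosome 1, was 4.64 and 4.87 FPKM in WT, 3.41 and 3.48 in D2A7, 3.96 and 4.01 in D1E6, 2.97 and 2.87 in E2E8, and 3.88 and 3.97 in E2G7. It was below WT in all 8 KO libraries and called in E2E8 (-0.69, SE 0.046, adjusted p = 1.89e-05, limma). Inpp5f, a phosphoinositide phosphatase gene, was 2.60 and 2.61 FPKM in WT and between 1.82 and 2.25 in the KO libraries, with log2 fold changes of -0.40 and -0.24 that were under the fold threshold. Impact had -0.32 and -0.27, the latter with an adjusted p of 0.024 in limma. Peg3, a zinc finger gene of the brain and placenta, ran from 10.4 FPKM in D2A7 to 18.6 in E2G7, around 13.6 and 13.5 in WT. Plagl1, a growth-regulating zinc finger gene, ran from 1.99 FPKM in E2G7 to 3.71 in D2A7, around 2.54 and 2.56 in WT. Both differed among the 5 lines. Usp29 ran from 0.332 to 0.600 FPKM and Trappc9 from 4.98 to 6.74 FPKM.

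The knockouts were also compared with each other, 4 libraries against 4. Of the 33 members 3 were called, against 1.52% of all genes, namely Igf2 higher and Mest and Nnat lower in Dnttip1 KO. Igf2 differed by 1.19 (SE 0.249, adjusted p = 0.251, limma), Nnat by -2.45 (SE 0.498, adjusted p = 0.251, limma) and Mest by -0.97 (SE 0.286, adjusted p = 0.296, limma). Igf2 entered this test only through the Dnttip1 KO libraries, as all Elmsan1 KO libraries lay below the filter of 0.1 FPKM. Its call is therefore descriptive only. None of the 33 had an adjusted p under 0.05 (0 in limma, 9 at an unadjusted p under 0.05, and 3 called by voom), and 0.0341% of all genes did. The Dnttip1 KO and Elmsan1 KO libraries did not overlap for Igf2, Nnat and Mest. The same held for Peg3, Mcts2, Nespas and Ube3a, which were not called. How many of all genes separate in this way was not counted. For Mest the D1E6 libraries lay between D2A7 and Elmsan1 KO. The Mest call was lost without either D2A7 library (-0.78 each), either E2E8 library (-0.93 and -0.94) or either E2G7 library (-1.01 and -1.0), and with no filter, no variance trend or a replicate block (unadjusted p from 0.0104 to 0.0137, limma). That of Igf2 was lost with a pseudocount of 1 (0.29) and with correlation within clones (unadjusted p = 0.0251, limma).

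Genes that protect or write imprints were listed beside the members, 17 maintenance factors among them. In Dnttip1 KO none of the 17 was called (0 by limma and by voom, 5 at an unadjusted p under 0.05), and in Elmsan1 KO Zfp57 was called lower and the other 16 were not. Zfp57, the zinc finger protein that binds methylated control regions, was 75.3 and 79.2 FPKM in WT, 72.7 and 78.5 in D2A7, 50.0 and 53.1 in D1E6, 44.2 and 46.0 in E2E8, and 46.9 and 46.5 in E2G7. The D2A7 libraries overlapped WT and the other 3 clones were lower. The log2 fold change in Elmsan1 KO was -0.75 (SE 0.049, adjusted p = 0.0017, limma). By clone it was -0.03 in D2A7, -0.58 in D1E6, -0.77 in E2E8 and -0.72 in E2G7. In single clones Uhrf1, the partner of DNMT1 at replicated DNA, was called higher in D2A7 (0.62, 220 and 222 FPKM against 149 and 140 in WT), Dppa3, which protects methylation in the early embryo, lower in D2A7 (-0.70, 58.7 and 59.2 FPKM against 99.4 and 93.0), and Ezh2, a histone methyltransferase of Polycomb, higher in D1E6 (0.60, 42.6 and 42.7 FPKM against 27.6 and 28.6). Ezh2 lies on chromosome 6, whose genes had a median log2 difference from WT of 0.42 in D1E6. Whether the levels of these factors bear on any member was not tested. Among 6 genes for de novo methylation and TET enzymes, Dnmt3l was called higher in Dnttip1 KO (1.76, adjusted p = 0.0265, limma) and none in Elmsan1 KO (0 by limma and by voom, 1 at an unadjusted p under 0.05). The Elmsan1 KO clones stood on opposite sides of WT for Dnmt3l, a cofactor of de novo methylation, at 5.95 and 6.38 FPKM in WT, 2.89 and 3.11 in E2E8 and 16.1 and 15.4 in E2G7, and both were called (-1.01 and 1.34). Dnmt3b was also called lower in E2E8 (-1.49), Tet2 was called lower in E2E8 (-1.63) and E2G7 (-0.64), and 4 of the 6 genes differed between these clones.

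Further imprinted genes that are not on the list of 41 were counted separately. They were chosen with earlier results of these data known, so their counts beside the share of all genes are descriptive only. In Dnttip1 KO 3 of 12 that could be tested were called, against 6.51% of all genes, with Osbpl5 higher and Sfmbt2 and Ano1 lower. In Elmsan1 KO 4 of 11 were called, against 6.43% of all genes, with Sfmbt2, Smoc1, Ddc and Ano1 lower. Sfmbt2, a paternally expressed Polycomb gene, was 6.08 and 6.37 FPKM in WT, 2.82 and 3.10 in D2A7, 3.45 and 3.74 in D1E6, 3.28 and 3.30 in E2E8, and 4.12 and 3.96 in E2G7. All 8 KO libraries were below WT, with log2 fold changes of -0.91 (adjusted p = 0.013, limma) and -0.76 (adjusted p = 0.0164, limma). Smoc1, a secreted matrix protein gene, and Ano1, a chloride channel gene, were called lower in all 4 clones, like Sfmbt2. Smoc1 had -2.0 (adjusted p = 0.0014, limma) in Elmsan1 KO, and Ano1 had -1.11 (adjusted p = 0.0486, limma) and -1.95 (adjusted p = 0.019, limma). Ddc, the neighbour of Grb10, had -0.66 (adjusted p = 0.0108, limma) in Elmsan1 KO, and Osbpl5, at the edge of the Kcnq1-Cdkn1c cluster, had 0.70 (adjusted p = 0.0631, limma) in Dnttip1 KO.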

How the data were processed

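The authors prepared stranded total RNA libraries (TruSeq), sequenced both ends for 100 cycles on Illumina instruments, aligned to NCBIM37, counted with HT-seq and deposited FPKM values. For their own tests the authors normalized counts with edgeR 3.16.5 and used voom and limma in R 3.3.1. Their methods name GENCODE vM20, but 97.2% of the gene identifiers are in vM1, which was used for positions and exon lengths. The deposited FPKM are no counts, so limma 3.58.1 in R 4.3.3 (two-sided moderated test with a variance trend) was run on log2(FPKM + 0.1) after median-ratio scaling over 11270 genes, with genes of at least 0.1 FPKM in at least 2 libraries compared, and adjusted p-values are Benjamini-Hochberg over all genes tested. All p-values are from this test. FPKM times exon length came out whole within 0.02 of a step for 98.1% to 98.4% of values under 100 steps, which gave fragments per gene. Precision is lowest for genes with few fragments. With 4 libraries against 2, an exact permutation test cannot go below 0.0667.

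Samples were grouped by genotype and clone from their labels. The fits of a knockout with WT used the libraries compared, and the clone comparisons used all 10. The members and the other lists were chosen with earlier results of these data known. All members are described, with values in every library for those called in a pairwise comparison and reaching 1 FPKM in a line, with H19, Igf2, Zfp57 and Sfmbt2 added after their values were seen. Alternatives were pseudocounts of 1 and 0.01, other filters, the FPKM as deposited, quantile normalization, chromosome medians removed, no variance trend, correlation within clones, a block on replicate number, a single fit, a threshold on the adjusted p, voom on recovered fragments and each library left out. On simulated data with a log2 change of 1.5 in 200 genes, 200 were recovered in each knockout against WT and 198 between the knockouts. The changed genes were above 1 FPKM in WT, and the simulated libraries varied independently with no spread between clones. The simulation therefore checks that the code runs as meant and does not measure power or false calls with real clones. Promoter sequences are from RefSeq (GRCm38.p6); 30 members matched and 8 did not. Python 3.11.15, numpy 2.4.6, pandas 2.3.3 and matplotlib 3.10.9 made the tables and figures.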

Additional observations from a re-analysis of the deposited data

Results flagged for a closer look

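With 4 independent libraries, a library would stand apart by chance in about 1 set in 20. Libraries here are paired by clone, so that rate is only a rough guide. In 4 of 66 sets of 4 libraries of a knockout, a library stood apart from the other 3. These were Tssc4 in Dnttip1 KO, with 15.7 FPKM in D1E6 replicate 2, Cd81 in Dnttip1 KO, with 119 FPKM in D2A7 replicate 2, Nespas in Dnttip1 KO, with 7.51 FPKM in D2A7 replicate 2, and Mcts2 in Elmsan1 KO, with 16.1 FPKM in E2G7 replicate 1.

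In 15 cases clones of the same knockout differed by at least 1.5-fold in limma with an unadjusted p under 0.01. On the log2 scale, D2A7 minus D1E6 was 0.81 for Igf2, 0.66 for Igf2r, -1.16 for Mest, -0.87 for Nnat, 1.15 for Grb10, 0.68 for Phlda2, 1.09 for Gnas and 2.63 for Slc38a4. E2E8 minus E2G7 was 1.61 for H19, 0.68 for Ndn, -1.70 for Nnat, 0.76 for Grb10, 0.73 for Phlda2, 0.75 for Slc22a18 and 1.80 for Slc38a4. Nnat, Grb10, Phlda2 and Slc38a4 are in both lists. Both clones of a pair have the same gene knocked out, and each clone is a single line. What goes with the differences between them was not tested.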

How the results depend on the processing

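Of 76 calls of single members, 45 held under all alternatives run, and of 1308 alternative values 1215 kept their call, 93 lost it and 0 changed sign. A pseudocount of 1 lost 24 calls, the most of any setting. Calls rest on the unadjusted p. For the Dnttip1 KO calls, the highest adjusted p over the alternatives ran from 0.100 for Zrsr1 to 0.260 for Phlda2 (limma). With the share of all genes called under the same setting in brackets, the 6 members called in Dnttip1 KO became 3 with a pseudocount of 1 (3.1%) and 11 with all 10 libraries in a single fit (12.1%). In Elmsan1 KO, 3 became 6 with quantile normalization (7.09%), 1 with chromosome medians removed (5.83%), 1 with correlation within clones (2.82%) and 9 in a single fit (11%). Between the knockouts, 3 became 1 with genes averaging 1 FPKM or more (0.917%) and 0 with an adjusted p under 0.05 (0.0227%). Against WT, D2A7 (10) had 4 with a pseudocount of 1 (7.41%) and 6 with genes averaging 1 FPKM or more (12.4%), D1E6 (8) had 5 with either (4.39% and 8.95%), and E2E8 (8) had 5 with a pseudocount of 1 (7.19%). With a library left out, the counts were 4 to 7 in Dnttip1 KO, 1 to 5 in Elmsan1 KO, 2 to 3 between the knockouts, 6 to 8 in either clone pair, 9 to 10 in D2A7, 7 to 9 in D1E6, 6 to 7 in E2E8, 5 to 7 in E2G7 and 18 to 20 over the 5 lines.

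The labels give each line replicates 1 and 2. Differences between them correlated from -0.20 to 0.35 between lines over 12215 genes, the highest between D2A7 and E2E8. The main fits did not use the numbers as a pairing, and whether some lines share a batch was not tested. A block on the replicate number gave 5 members in Dnttip1 KO, 2 in Elmsan1 KO, 2 between the knockouts, 7 in each clone pair, 10 in D2A7, 7 in D1E6, 8 in E2E8, 5 in E2G7 and 18 over the lines. Members under 0.1 FPKM rest on few fragments and are limited by depth.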
